A study of Mus musculus with 8 samples.

Results

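The genes described here drive the cell division cycle and copy DNA, and they were followed in liver RNA of mice with colitis. The list holds 34 genes given by name, with no threshold on their values. Of these, 32 were measured among 22180 genes. By role they are 6 of 7 G1 cyclins and inhibitors of cyclin-dependent kinases (CDKs), both transcription factors, all 10 genes of DNA replication and nucleotide supply, and 14 of 15 genes of G2 and mitosis. Where several array rows name only 1 given gene, that with the highest mean level stood for it. Ccne2 occurs only in a row that also names Ints8, and the level of Ccnb1 was not analysed here, though its promoter window is among those searched.

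The samples are livers from 4 mice labelled IL-10 knockout and 4 labelled wild-type, hybridised to 8 Affymetrix Mouse Gene 2.0 ST arrays, 1 array each. Every mouse is labelled C57BL/6, female and 6 weeks old, and every mouse drank 3% dextran sulfate sodium (DSS), which injures the colon lining, for 7 days. No untreated mice are included, so the comparison is between genotypes under DSS. The knockout allele, the cells it affects and the litters were not stated in the labels. Nothing ties the arrays to separate litters or cages, and the p-values cover only the spread seen among these samples, part of which may be technical.

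Cells enter the cycle in G1, when D cyclins and then E cyclins activate CDKs that release E2F factors from the retinoblastoma proteins. E2F then turns on genes that unwind and copy DNA, among them the Mcm helicase. Later, FOXM1 and related complexes turn on the genes that build and separate the mitotic chromosomes. Hepatocytes of the adult liver are mostly quiescent and re-enter the cycle after injury, and immune and blood-forming cells in the organ can divide as well.

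Values are log2 levels after robust multi-array averaging (RMA), so a difference of 1 is a doubling, written here as knockout-labelled minus wild-type. Il10, the targeted gene, read 5.79, 5.69, 6.00 and 6.41 in knockout-labelled replicates 1 to 4, against 4.95, 5.08, 4.90 and 4.95 in wild-type replicates 1 to 4. Its row was thus higher in the arrays labelled knockout (log2 difference 1.00, SE 0.14; limma adjusted p = 0.00851), and directions below follow the labels. The labels do not place the mutation relative to its probes, and the row therefore checks nothing. Although all mice are labelled female, replicates 1 and 2 of both groups had Y-linked signal (mean of Kdm5d, Eif2s3y and Uty 8.20 to 8.52) and little Xist. Replicates 3 and 4 of both groups had Xist at 11.68 to 11.82 and Y-linked means of 4.30 to 4.48. Both groups thus hold 2 arrays of each kind. All 12 hepatocyte markers were measured, with Alb at 13.51 in knockout-labelled and 13.63 in wild-type arrays. RNA of whole liver does not tell fewer cells of a type from less RNA per cell.

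Genes of replication and of mitosis are known to carry different short promoter motifs, and sequences of both kinds are shown here because the values below are ordered by these stages. RefSeq promoter windows (GRCm38.p6, from 250 bases before to 50 after a transcript start) were found for 26 of the 34 listed genes, in 29 windows, and none for Aurkb, Ccna2, Ccnd1, Ccnd2, Ccne2, Foxm1, Kif20a and Mcm4. Both strands were searched for the E2F words TTTGGCGC, TTTCCCGC, TTTGGCGG and TTTCCCGG, the CCAAT box CCAAT, bound by NF-Y, and the cell cycle homology region (CHR) TTTGAA. No word contains another. The sequences below are the 200 bases before the start, 5′ to 3′, with matches in capitals; E2F words also appear as their reverse complements (GCGCCAAA), and CCAAT as ATTGG.
Mcm6, chr1:128359706-128359905, minus strand: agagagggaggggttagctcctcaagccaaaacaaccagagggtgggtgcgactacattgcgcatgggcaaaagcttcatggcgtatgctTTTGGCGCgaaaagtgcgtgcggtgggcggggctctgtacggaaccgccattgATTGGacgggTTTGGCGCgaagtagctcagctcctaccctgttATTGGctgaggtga
Mcm5, chr8:75109309-75109508, plus strand: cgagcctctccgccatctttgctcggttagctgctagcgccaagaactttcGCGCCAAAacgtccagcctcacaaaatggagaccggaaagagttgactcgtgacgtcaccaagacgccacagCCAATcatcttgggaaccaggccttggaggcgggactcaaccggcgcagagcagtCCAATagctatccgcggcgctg
Pcna, chr2:132253181-132253380, minus strand: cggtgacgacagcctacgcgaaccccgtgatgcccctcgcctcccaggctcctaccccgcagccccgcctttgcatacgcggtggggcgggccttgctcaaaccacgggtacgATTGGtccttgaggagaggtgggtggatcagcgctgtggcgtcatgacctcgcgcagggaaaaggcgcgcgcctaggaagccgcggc
Ccnb2, chr9:70421555-70421754, minus strand: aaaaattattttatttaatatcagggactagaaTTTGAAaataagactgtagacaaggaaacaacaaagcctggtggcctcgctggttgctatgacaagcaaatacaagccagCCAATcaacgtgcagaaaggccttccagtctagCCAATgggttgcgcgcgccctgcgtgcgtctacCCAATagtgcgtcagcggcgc
Cdc20, chr4:118437344-118437543, minus strand: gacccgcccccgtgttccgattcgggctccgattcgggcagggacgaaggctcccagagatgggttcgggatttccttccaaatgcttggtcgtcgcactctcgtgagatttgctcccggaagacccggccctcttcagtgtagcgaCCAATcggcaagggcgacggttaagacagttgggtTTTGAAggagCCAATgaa

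The helicase genes Mcm6 and Mcm5 hold 2 and 1 E2F words in these stretches, and Pcna holds none. The mitosis genes Ccnb2 and Cdc20 each hold a CHR and no E2F word. Over the full windows, an E2F word was present in 4 of 10 windows of replication genes and in 1 of 12 of mitosis genes, against 3.32% of all 32851 promoters. A CHR was present in 1 of 10 windows of replication genes and in 9 of 12 of mitosis genes, against 17.9% of all promoters. A CCAAT box was present in 8 of 10 and 11 of 12, against 37.4%. None of the 6 windows of G1 genes held an E2F word or a CHR. A match is a string of letters, not a measured site, and no match says only that the letters are not in the window.

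Among the 6 measured G1 genes, Ccnd1 fell, none rose and 5 did not pass. Over all genes, limma called 1.59% lower and 1.56% higher, 3.15% together. Ccnd1 encodes cyclin D1, the D cyclin that hepatocytes induce when they enter the cycle. It read 8.79, 7.998, 7.44 and 8.47 in knockout-labelled replicates 1 to 4, against 9.16, 9.39, 10.39 and 9.44 in wild-type replicates 1 to 4. All knockout-labelled arrays lay below all wild-type arrays, as for 5.74% of all genes, with replicate 3 of each group at the extremes. Knockout-labelled arrays averaged 8.17 ± 0.59 and wild-type arrays 9.60 ± 0.54 (SD, n = 4 each), so the log2 difference was -1.42 (SE 0.31; 95% interval -2.12 to -0.72; limma adjusted p = 0.0427), or 2.68-fold higher in wild-type arrays.

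The call for Ccnd1 was lost in most fits with 1 array fewer, and the cause was not tested. Of the 8 fits that each left out 1 array, only that without knockout-labelled replicate 1 kept it. The limma adjusted p ran up to 0.0946 and the difference from -1.63 to -1.16. It was also lost with variances that follow the level and with every table row tested (adjusted p = 0.0777 and 0.0862).

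Cdkn1a encodes p21, a CDK inhibitor that p53 and stress signals induce. It read 9.78, 10.67, 11.72 and 11.45 in knockout-labelled replicates 1 to 4, against 9.84, 9.81, 9.15 and 9.97 in wild-type replicates 1 to 4. Of the knockout-labelled arrays, 3 lay above every wild-type array, and replicate 1 lay within the wild-type range. The log2 difference of 1.21 (SE 0.37; 95% interval 0.39 to 2.03) did not pass (limma adjusted p = 0.104). Without knockout-labelled replicate 1 it was 1.58 with adjusted p = 0.0146.

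**Figure D1:**
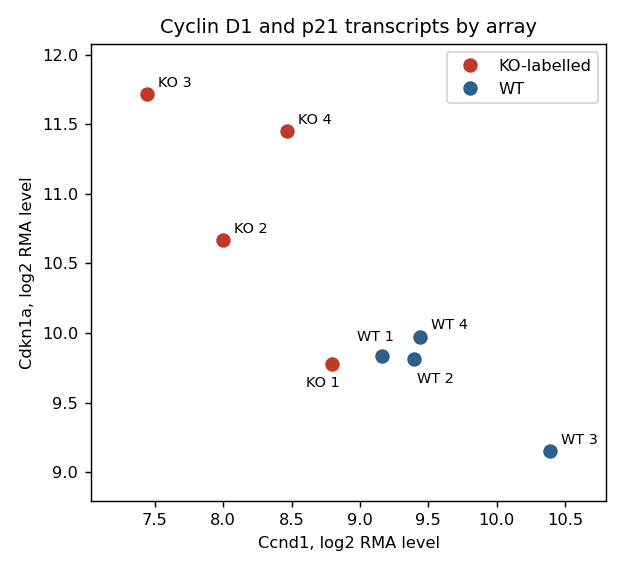
Log2 RMA levels of Ccnd1 (horizontal) and Cdkn1a (vertical) in each of the 8 arrays, red for knockout-labelled and blue for wild-type, numbered by replicate. Knockout-labelled replicate 3 has the lowest Ccnd1 (7.44) and the highest Cdkn1a (11.72), and wild-type replicate 3 has the highest Ccnd1 (10.39) and the lowest Cdkn1a (9.15).

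The plot of both genes by array shows their opposite extremes in replicate 3 of either group. Knockout-labelled replicate 1, by contrast, was the nearest of its group to the wild-type arrays on both axes. The spread of these genes within groups was wide, with a pooled SD of 0.57 log2 units for Ccnd1 and 0.67 for Cdkn1a, at percentiles 99.0 and 99.3 of all genes. Extremes in replicate 3 of either group were not particular to Ccnd1 and Cdkn1a. Over all 22180 genes, knockout-labelled replicate 3 was highest for 5978 and lowest for 4148, more than any other array on either count. Wild-type replicate 3 was highest for 3552 and lowest for 3503.

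The remaining G1 members did not pass. Ccnd2, a second D cyclin, read 7.91, 7.44, 7.06 and 7.42 in knockout-labelled replicates 1 to 4, against 7.81, 7.62, 8.19 and 7.78 in wild-type replicates (log2 difference -0.39, SE 0.17; limma adjusted p = 0.232). The groups overlapped through knockout-labelled replicate 1. Ccnd3, the third D cyclin, averaged 8.71 ± 0.12 in knockout-labelled and 8.70 ± 0.04 in wild-type arrays (SD, n = 4 each), with a 95% interval of -0.16 to 0.18 for the difference. Ccne1 encodes cyclin E1, which acts at the G1 to S transition, and had a difference of 0.22 (SE 0.09; adjusted p = 0.197). Cdkn1b, which encodes the inhibitor p27, had -0.09 (SE 0.08; adjusted p = 0.551).

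Neither transcription factor passed. E2f1, an activating E2F, averaged 6.92 ± 0.11 in knockout-labelled and 6.96 ± 0.14 in wild-type arrays (SD, n = 4 each; log2 difference -0.04, 95% interval -0.24 to 0.15). Foxm1, the activator of mitosis genes, averaged 5.70 ± 0.05 in knockout-labelled and 5.64 ± 0.10 in wild-type arrays (difference 0.05, 95% interval -0.11 to 0.21). Neither interval reaches a difference of the size seen for Ccnd1 or Cdkn1a. The overall mean of Foxm1 lies below 6.09, the lowest array median, so low signal limits what its interval shows.

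**Figure D2:**
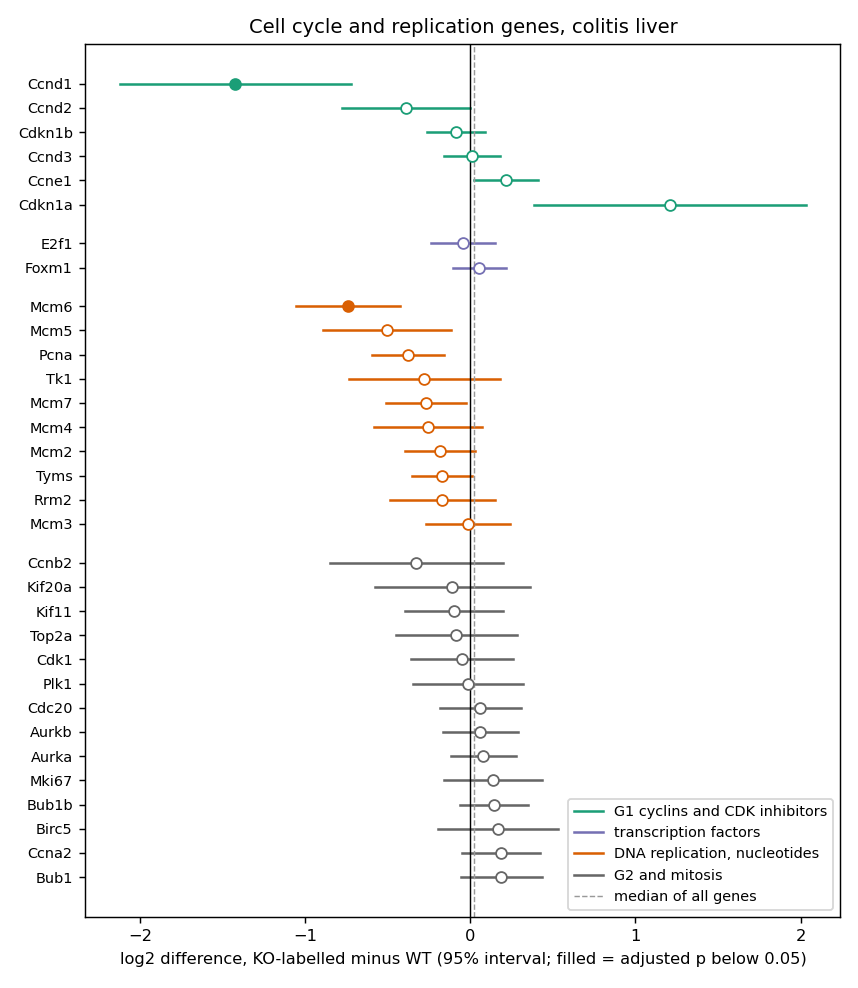
Log2 difference of knockout-labelled minus wild-type arrays for the 32 measured genes, with 95% intervals from limma, grouped by role and sorted within each role. Filled points passed at adjusted p below 0.05 (Ccnd1 and Mcm6), and the dashed line is the median of all genes (0.03).

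The 10 replication and nucleotide genes all had negative differences, beside 44.0% of all genes, and Mcm6 fell. Mcm2 to Mcm7 encode the 6 subunits of the ring that unwinds DNA at replication forks. Mcm6 read 6.35, 6.08, 6.41 and 6.15 in knockout-labelled replicates 1 to 4, against 6.78, 7.27, 7.21 and 6.69 in wild-type replicates 1 to 4. The groups did not overlap. Knockout-labelled arrays averaged 6.25 ± 0.16 and wild-type arrays 6.99 ± 0.29 (SD, n = 4 each), so the log2 difference was -0.74 (SE 0.14; 95% interval -1.05 to -0.42; limma adjusted p = 0.0259), or 1.67-fold higher in wild-type arrays. The call did not survive leaving out replicate 2 of either group, wild-type replicate 3 or knockout-labelled replicate 4 (limma adjusted p up to 0.0787), nor testing every table row (0.0597).

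Mcm6 is also a neighbour of the mutated gene. In assembly GRCm38.p6 it lies on chromosome 1 within 5 Mb of Il10, with 16 protein-coding genes between them. Of 112 genes measured within 5 Mb of Il10, Mcm6 among them and Il10 left out, 6 were called (5.36%), 5 of them higher and only Mcm6 lower. Within 20 Mb the share was 6.53% of 199 genes, against 3.12% of the 21980 genes elsewhere. Mcm3 also lies on chromosome 1 but outside that window. Whether DNA around the targeted locus differs between the groups, and its part in the Mcm6 value, was not tested.

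The other Mcm genes had smaller differences, and none passed. Mcm5 read 7.10, 6.84, 6.98 and 6.84 in knockout-labelled replicates 1 to 4, against 7.29, 7.76, 7.79 and 6.95 in wild-type replicates (log2 difference -0.50, SE 0.17; limma adjusted p = 0.136). Wild-type replicate 4 alone fell among the knockout-labelled values, and without it Mcm5 had -0.67 with adjusted p = 0.0451. Mcm7 had -0.27 (SE 0.11; adjusted p = 0.199), Mcm4 -0.25 (SE 0.15; 0.345) and Mcm2 -0.18 (SE 0.10; 0.298). Mcm3 averaged 6.44 ± 0.17 in knockout-labelled and 6.45 ± 0.19 in wild-type arrays (SD, n = 4 each), with a 95% interval of -0.27 to 0.24. Subunits of 1 ring thus had differences from -0.74 to -0.01, and the differences between subunits were not tested.

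Pcna encodes the clamp that holds DNA polymerases on the template. It read 8.94, 8.66, 8.57 and 8.64 in knockout-labelled replicates 1 to 4, against 9.08, 9.05, 9.25 and 8.93 in wild-type replicates (log2 difference -0.38, SE 0.10; limma adjusted p = 0.0711). Only knockout-labelled replicate 1 reached the wild-type range, by a narrow margin over wild-type replicate 4. Without knockout-labelled replicate 1 the difference was -0.45 with adjusted p = 0.0273.

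Of the nucleotide genes none passed. Tk1, which salvages thymidine, read 7.69, 8.30, 8.07 and 7.58 in knockout-labelled replicates 1 to 4, against 8.46, 8.36, 8.32 and 7.62 in wild-type replicates. Its groups overlapped through wild-type replicate 4 (log2 difference -0.28, SE 0.21; limma adjusted p = 0.460). Tyms, which makes thymidylate, had -0.17 (SE 0.08; adjusted p = 0.261). Rrm2, the small subunit of ribonucleotide reductase, also had -0.17 (SE 0.14; adjusted p = 0.516).

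**Figure D3:**
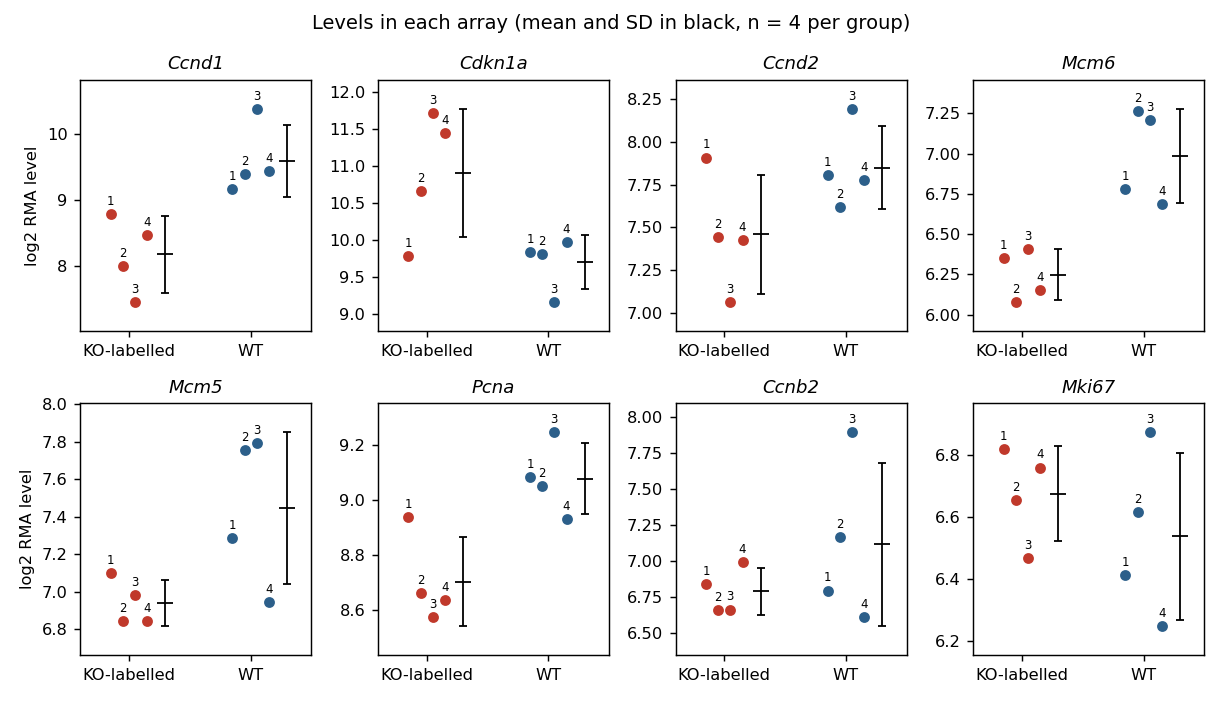
Log2 RMA levels of 8 genes in each array, knockout-labelled in red at left and wild-type in blue at right, numbered by replicate, with mean and SD in black (n = 4 per group; each panel has its own scale). Ccnd1 and Mcm6 show no overlap between groups, while those of Ccnb2 and Mki67 overlap.

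No mitosis gene passed the test. None of 14 was called by limma, none had an unadjusted p below 0.05, and the lowest adjusted p was 0.345. Mki67, the common proliferation marker, read 6.82, 6.65, 6.47 and 6.76 in knockout-labelled replicates 1 to 4, against 6.41, 6.62, 6.87 and 6.25 in wild-type replicates. The groups overlapped almost fully (log2 difference 0.14, SE 0.13; 95% interval -0.16 to 0.43; limma adjusted p = 0.574). Cdk1, the kinase that drives mitosis, had -0.05 (95% interval -0.36 to 0.26), and Ccna2, a cyclin that partners with it, had 0.19 (-0.05 to 0.42). Ccnb2, a B cyclin, read 6.84, 6.66, 6.66 and 7.00 in knockout-labelled replicates 1 to 4, against 6.80, 7.17, 7.89 and 6.61 in wild-type replicates. Its difference of -0.33 (SE 0.23) was -0.07 without wild-type replicate 3.

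None of the regulators of chromosome separation passed. The kinases Plk1, Aurka and Aurkb had -0.01, 0.08 and 0.06, with SEs of 0.15, 0.09 and 0.10. The spindle checkpoint kinases Bub1 and Bub1b had 0.19 and 0.14 (SE 0.11 and 0.09). Cdc20, which activates the anaphase-promoting complex, had 0.06 (SE 0.11), and Birc5, the chromosomal passenger survivin, 0.17 (SE 0.16). The spindle motors Kif11 and Kif20a had -0.10 and -0.11 (SE 0.13 and 0.21), and Top2a, which untangles DNA before mitosis, -0.09 (SE 0.16). The overall mean was below 6.09, the lowest array median, for 7 of the 14 rows, and the table gives no call of presence or absence.

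The mitosis members shared their extreme arrays. Wild-type replicate 3 held the highest of the 8 values for 11 of 14 mitosis genes, and wild-type replicate 1 the lowest for 7. Over all 22180 genes, wild-type replicate 3 was highest for 3552 and wild-type replicate 1 lowest for 3270. Of the 56 other G2 and mitosis genes described below, wild-type replicate 3 was highest for 16, with a median of 0.08 against each gene's mean, and wild-type replicate 1 was lowest for 18. Against each gene's mean over the 8 arrays, the median mitosis gene was 0.08, -0.08, -0.03 and 0.07 in knockout-labelled replicates 1 to 4, and -0.21, -0.04, 0.28 and -0.14 in wild-type replicates 1 to 4. The knockout-labelled values lie within the wild-type range. Kif20a, for example, read 6.58 in wild-type replicate 3 and between 5.46 and 5.83 in the other 7 arrays. Without wild-type replicate 3, 12 of 14 differences were positive with a class median of 0.14, against 8 of 14 and 0.06 with it.

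For the replication genes the median against each gene's mean was -0.02, -0.22, -0.19 and -0.26 in knockout-labelled replicates 1 to 4, and 0.06, 0.21, 0.31 and -0.05 in wild-type replicates 1 to 4. Knockout-labelled replicate 1 and wild-type replicate 4 thus met in the middle. No replication gene had its highest value in a knockout-labelled array, and none had its lowest in a wild-type array. Without wild-type replicate 3 the class median was -0.20 and 9 of 10 differences were negative.

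**Figure D4:**
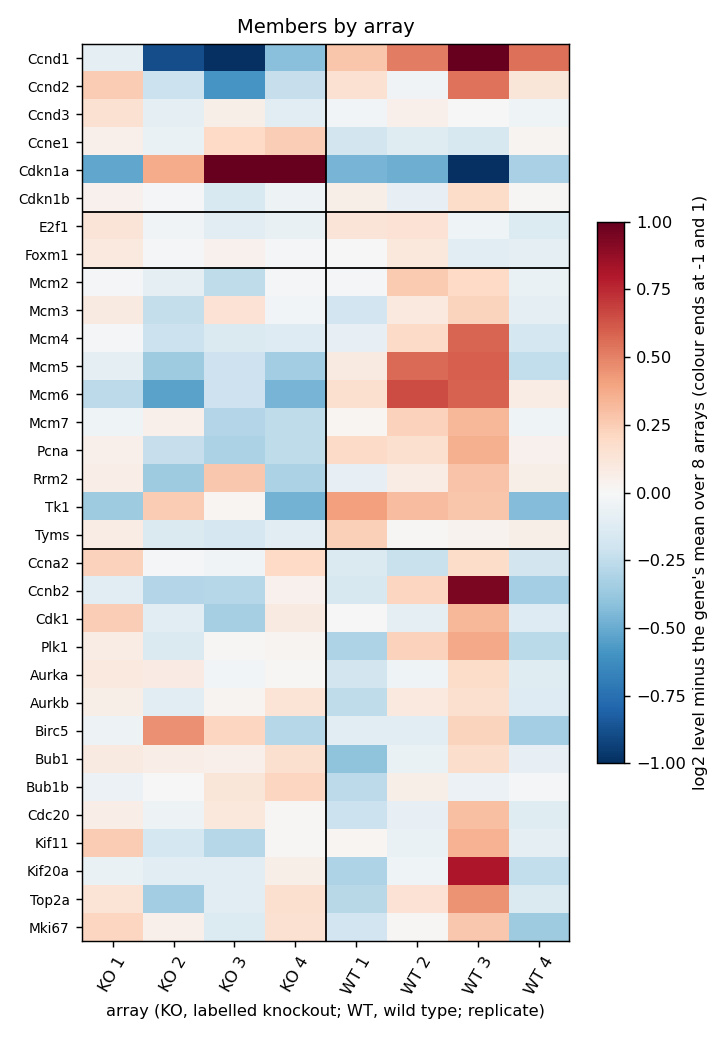
Log2 level of each gene minus its mean over the 8 arrays, for 32 genes (rows, grouped by role with black lines) and 8 arrays (columns, knockout-labelled left of wild-type). Wild-type replicate 3 is red for most mitosis genes, and the replication rows are mostly blue in the knockout-labelled arrays other than replicate 1.

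By stage, the class medians of the log2 difference were -0.04 for G1, 0.0050 for the transcription factors, -0.26 for replication and 0.06 for mitosis, beside 0.03 over all genes. The replication median stayed between -0.31 and -0.25 under 3 other scalings of the arrays, and the mitosis median between 0.01 and 0.03. In all, 2 of 32 members were called lower and none higher by limma, beside 1.59% and 1.56% of all genes. After a shift of the arrays to 1 common median, calls over all genes were 209 higher and 330 lower, in place of 347 and 352. At an unadjusted p below 0.05, 6 members were lower and 2 higher, where all genes gave 9.79% lower and 11.4% higher. The 6 lower were Ccnd1, Ccnd2, Mcm5, Mcm6, Mcm7 and Pcna, and the 2 higher were Ccne1 and Cdkn1a. Of 10 replication genes 4 were among the lower, of 6 G1 genes 2 were lower and 2 higher, and of 14 mitosis genes none was in either set. Groups did not overlap for 2 members, both lower in the knockout-labelled arrays, beside 5.74% of all genes lower and 7.2% higher. No test of a class as a whole was made.

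Other genes of the same stages were taken from fixed lists. Of 45 other replication genes measured, 1 fell, none rose and 44 did not pass, beside 1.59% lower and 1.56% higher over all genes. Of these 45, 30 had negative differences (list median -0.07), beside 44.0% of all genes. Under the 3 other scalings the list median was -0.13 to -0.11, with 33 to 38 negative differences, and cyclic loess called 5 lower. Over all genes the median was then -0.03 to 0.02. Orc5, a subunit of the origin recognition complex, read 8.02, 8.04, 8.01 and 7.93 in knockout-labelled replicates 1 to 4, against 8.32, 8.20, 8.29 and 8.37 in wild-type replicates. The groups did not overlap (log2 difference -0.29, SE 0.07; limma adjusted p = 0.0455), but the call was lost without any 1 of the 8 arrays (adjusted p up to 0.132). Pola2, a subunit of DNA polymerase alpha, had -0.41 (SE 0.10; adjusted p = 0.0551). Rpa3, of the complex that coats single-stranded DNA, had -0.70 (SE 0.17; 0.0563). At an unadjusted limma p below 0.05, 13 of the 45 were lower and 1, the flap endonuclease Fen1, was higher. Over all genes the shares at that threshold were 9.79% lower and 11.4% higher.

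Of 56 other G2 and mitosis genes, 2 fell, none rose and 54 did not pass, beside 1.59% lower and 1.56% higher over all genes. The list median was 0.02, with 27 negative differences. Under the 3 other scalings it was -0.01 to -0.03, with 34 to 37 negative differences. Low signal limits most of these rows. With the 40% of genes of lowest mean level left out, 16 remained, 10 of them negative and 2 called lower (median -0.05). The same filter kept 31 of the other replication genes, 22 of them negative and 3 called lower (median -0.11). Wee1 encodes the kinase that keeps Cdk1 inactive before mitosis, and its transcript follows the circadian clock in mouse liver. It read 5.61, 5.92, 5.72 and 5.67 in knockout-labelled replicates 1 to 4, against 6.89, 6.35, 6.84 and 6.57 in wild-type replicates. The groups stood apart in every array (log2 difference -0.93, SE 0.12; limma adjusted p = 0.00704), and the call held without each array in turn (adjusted p up to 0.0263). Cks2, a small partner of CDKs, fell by 0.60 (SE 0.13; adjusted p = 0.0426), and kept its call only in the fits without wild-type replicate 4 or without knockout-labelled replicate 2 (adjusted p up to 0.125 in the others). Spc24, a kinetochore subunit, had -0.24 (SE 0.07; adjusted p = 0.104).

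None of 35 other G1 and checkpoint genes was called by limma, with 1 higher and 4 lower at an unadjusted p below 0.05. Over all genes the shares at that threshold were 11.4% higher and 9.79% lower. Of the 35 differences, 17 were positive and 18 negative. Gadd45g, a stress-induced growth arrest gene, read 9.26, 8.38, 10.79 and 10.54 in knockout-labelled replicates 1 to 4, against 8.59, 8.04, 7.33 and 8.37 in wild-type replicates. The groups overlapped through knockout-labelled replicate 2 (log2 difference 1.66, SE 0.49; limma adjusted p = 0.0941). As for Cdkn1a, the highest value was in knockout-labelled replicate 3 and the lowest in wild-type replicate 3. Knockout-labelled replicate 3 was also the highest array for 5978 of all 22180 genes, and wild-type replicate 3 the lowest for 3503. Ccnh, of the kinase that activates CDKs, and Cdk6, a partner of D cyclins, had -0.36 and -0.47 (adjusted p = 0.0822 and 0.148).

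**Figure D5:**
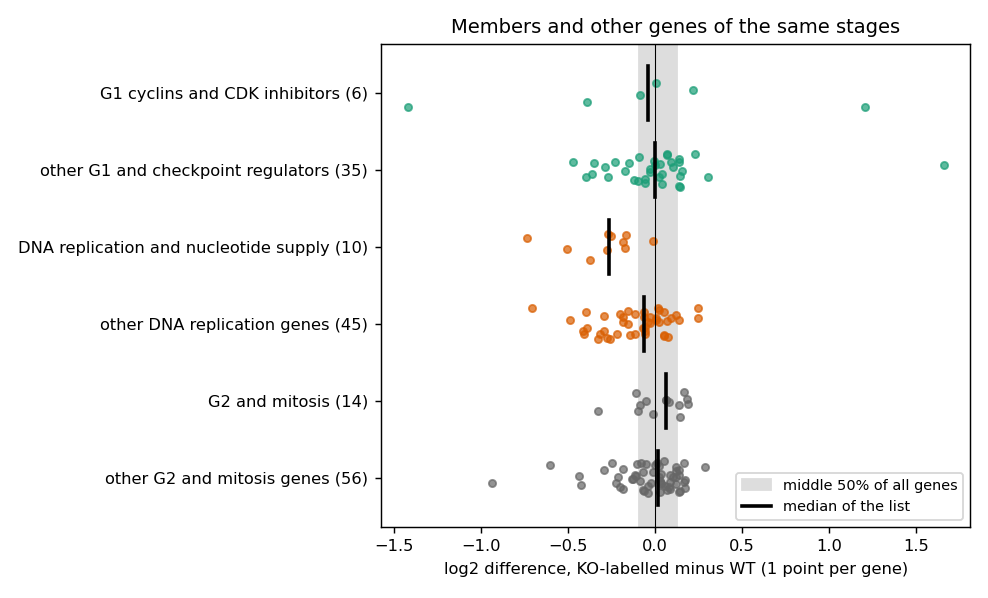
Log2 difference of knockout-labelled minus wild-type arrays, 1 point per gene, for the members of 3 stages and for the other genes of those stages, with the number of genes in brackets. Black bars are list medians (-0.26 for the replication members, -0.07 for the other replication genes), and the grey band is the middle 50% of all genes.

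Markers of other cells moved between the same groups. Of 14 erythroid precursor markers, Car2 (log2 difference -1.57), Car1 (-0.95) and Tspan33 (-0.52) fell and none rose, while the defining factor Klf1 had 0.18 and the receptor gene Epor 0.02. Their summed linear level, to which Car2 contributes, was 1265 to 1356 in knockout-labelled arrays, against 1551 to 2258 in wild-type arrays. The median erythroid marker, set against each gene's mean, overlapped between groups. It was -0.09, -0.14, 0.0085 and -0.08 in knockout-labelled replicates 1 to 4, and 0.11, 0.07, -0.08 and 0.02 in wild-type replicates 1 to 4. Wild-type replicate 3, the highest array for the median replication gene, was the lowest wild-type array by this median. By summed level, wild-type replicate 4 was the lowest (1551, against 1672 in wild-type replicate 3).

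Of 11 stellate cell and bile duct markers, Lrat (-1.01), Lum (-0.94) and Pkhd1 (-0.84) fell and none rose. Among those not called, Reln had -0.87, Col1a1 -0.11 and Des 0.0012. In this list 8 differences were negative and 3 positive, up to 0.52. At an unadjusted limma p below 0.05, 4 were lower and 1 higher. The summed level of the 11 markers was 2293 to 3178 in knockout-labelled arrays and 2729 to 3492 in wild-type arrays, which overlap. The median marker of this list was 0.12, -0.35, -0.08 and -0.25 in knockout-labelled replicates 1 to 4, and 0.08, 0.16, 0.44 and 0.08 in wild-type replicates 1 to 4. Wild-type replicate 3 was highest for this list, as for the replication and the mitosis genes. It was also highest for the median of 9 B and plasma cell markers (0.22, against -0.08 to 0.04 in the other arrays).

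Of 10 neutrophil precursor markers, Chil3 (1.05), Ltf (0.80) and Ngp (2.42) rose and Prtn3 (-0.72) fell, and the granule genes Mpo and Elane had 0.56 and 0.06 (limma adjusted p = 0.0624 and 0.646). Their summed level was 1073 to 1566 in knockout-labelled and 963 to 1074 in wild-type arrays. All 8 mature neutrophil markers measured rose, namely S100a8, S100a9, Retnlg, Cxcr2, Mmp8, Mmp9, Csf3r and Ly6g, by 0.43 (Csf3r) to 2.16 (Mmp8). Their summed level was 1569 to 2589 in knockout-labelled and 776 to 1065 in wild-type arrays. Of 12 macrophage markers, Vsig4, Cd163, Cd5l, C1qb, C1qc and Csf1r rose, by 0.51 (C1qc) to 1.01 (Cd163), with a summed level of 14288 to 17649 in knockout-labelled and 9615 to 11678 in wild-type arrays. Il2rb (0.67) rose among 12 T and NK cell markers, Lyve1 (1.05) among 9 endothelial markers and Tat (0.51) among 12 hepatocyte markers. None of Cd3d (0.15), Cd3e (0.45), Cd3g (0.11) and Cd4 (-0.0079) was called, nor Stab1 (0.27), Stab2 (0.0061) or Clec4g (0.13). Alb (-0.12), Apoa1 (-0.11), Ttr (-0.16) and Apob (0.04) were not called either. Of the endothelial markers, 3 were higher and 2 lower at an unadjusted limma p below 0.05. None of 9 B and plasma cell markers was called by limma, with 1 higher and 1 lower at an unadjusted p below 0.05. Over all genes the shares at that threshold were 11.4% higher and 9.79% lower. No marker is at 0 on this scale. The part of any of these cells in the members' values was not tested.

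The comparison was repeated within the arrays with Xist signal and within those with Y-linked signal. Cdkn1a had a log2 difference of 2.02 among the 4 arrays with Xist signal and 0.40 among the 4 with Y-linked signal, Ccnd1 -1.96 and -0.88, and Ccnd2 -0.74 and -0.04. The difference between the sets did not pass for any of the 32 members in a limma interaction fit over all genes (lowest adjusted p = 0.703, with 2 members at an unadjusted p below 0.05). Mcm6 had -0.67 among arrays with Xist signal and -0.81 among those with Y-linked signal, and Mcm5 -0.46 and -0.55. The class median of the replication genes was -0.27 and -0.17, and that of the mitosis genes -0.03 and 0.11. With a block for these sets, Ccnd1 and Mcm6 were again the members called.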

How the data were processed

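Liver RNA of 8 mice was measured on 8 arrays. Per the submitters' processing notes, RMA in R 3.0.1 gave the deposited log2 values. The summary level, background settings and genome build were not stated there. Array medians lay between 6.09 and 6.22, and array-to-array correlations between 0.976 and 0.994; the number of arrays limits precision. Of 41345 rows, 23521 name 1 gene in the platform annotation, giving 22180 genes; rows naming several genes or none stay out.

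Groups came from sample titles. Genes were fitted with limma 3.58.1 (lmFit, eBayes without trend) in R 4.3.3 without covariates, with Benjamini-Hochberg adjustment over 22180 genes and a threshold of 0.05. Every adjusted p is from limma. The fit was tested on simulated data. The members, the pathway and marker lists, the motifs and the alternatives were chosen with earlier results of these data known. The rule for names covers all measured members, called genes of the other lists, the 3 smallest p per pathway list and the first 4 markers of each cell type; of those first 4, not all uncalled ones are printed. The fit did not pair arrays by replicate number. Deviations from group means correlated by 0.27, 0.04, -0.10 and 0.29 for numbers 1 to 4. Unlike numbers were not compared, so these values do not settle whether the numbers pair the arrays. Promoter windows are RefSeq's (GRCm38.p6). Figures used matplotlib 3.10.9 in Python 3.11.15.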

Additional observations from a re-analysis of the deposited data

Results flagged for a closer look

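Of 64 combinations of a gene and a group of 4 arrays, 1 held an array far from the others. Tk1 read 7.62 in wild-type replicate 4, while wild-type replicates 1 to 3 lay between 8.32 and 8.46, so the gap was 0.841 of the group's range. Chance gives about 1 in 20 such groups, and 1 of 64 was found.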

How the results depend on the processing

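The calls were sensitive to single arrays. Leaving out each array in turn gave 0 to 4 members called and 207 to 1041 genes over all genes, in place of 2 and 699. Without knockout-labelled replicate 1 the members called were Ccnd1, Mcm6 and Pcna (lower) and Cdkn1a (higher). Leaving out replicate 2 of either group, wild-type replicate 3 or knockout-labelled replicate 4 gave 0 members by limma. The 4 class medians then ran from -0.08 to -0.01 for G1, -0.03 to 0.05 for the transcription factors, -0.34 to -0.20 for replication and -0.0064 to 0.14 for mitosis. With every table row tested, 0 members and 332 rows passed. With variances that follow the level, 1 member was called, Mcm6. An adjusted p below 0.1 gave 1685 genes and an added 1.5-fold minimum 377. The arrays with Xist signal alone gave 1 member (Cdkn1a), 316 genes and a G1 median of -0.10. Those with Y-linked signal alone gave 0 members, 171 genes and a G1 median of 0.025. The cause was not tested; fewer arrays or more tests enter several of these fits.

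The main fit did not pair arrays by replicate number. With the replicate number as a block, 497 genes and 1 member, Mcm6 (limma adjusted p = 0.0387), were called, while Ccnd1 kept its difference of -1.42 (adjusted p = 0.0952).

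Differences near 0 changed sign in members that were not called. Ccnd3 had -0.042 after a shift to a common median, -0.0034 with array weights and -0.0052 in the arrays with Xist signal. Foxm1 had -0.019 after cyclic loess. Cdk1 and Plk1 had 0.011 and 0.0030 with array weights. Mcm3, Aurka and Cdc20 had 0.0011, -0.043 and -0.035 in the arrays with Xist signal. In those with Y-linked signal Cdkn1b had 0.027, Foxm1 -0.0068, Cdk1 0.12, Plk1 0.0061, Kif11 0.063 and Kif20a 0.092. Leaving out single arrays gave -0.040 to 0.046 for Ccnd3, -0.080 to 0.063 for Mcm3, -0.14 to 0.051 for Cdk1, -0.12 to 0.11 for Plk1, -0.012 to 0.13 for Aurkb, -0.00065 to 0.17 for Cdc20, -0.23 to 0.14 for Kif20a and -0.19 to 0.049 for Top2a. Of 440 member values under the 14 other alternatives, 415 kept direction and side of the threshold. Several of these alternatives change only the test, the block or the threshold, so direction could not change in them. With 30 of 32 members not called at the outset, this count is no measure of robustness. Low signal limits the 7 mitosis genes and Foxm1 whose mean lies below 6.09.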

Other observations

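Array rows left out by the rule for choosing rows did not always follow the row used. The log2 differences of 2 rows that name both Top2a and Taf1d were -0.34 (SE 0.11) and -0.32 (SE 0.11), while the row of Top2a alone had -0.09 (SE 0.16). The row naming Ccne2 and Ints8 read 6.39, 6.32, 6.26 and 6.05 in knockout-labelled replicates 1 to 4, against 6.00, 6.17, 6.25 and 6.07 in wild-type replicates 1 to 4 (difference 0.13, SE 0.09). Rows naming Mcm7 with the miRNA genes in its introns had 0.26 (SE 0.13) with Mir25 and 0.01 with Mir93, while the row of Mcm7 alone had -0.27. A second row of Rrm2 had -0.05 (SE 0.07), beside -0.17 for the row used. A row naming Tyms and its pseudogene Tyms-ps had 0.14 (SE 0.15), beside -0.17 for Tyms alone. Which transcripts these probes read was not tested.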
